A study of Homo sapiens with 2 samples.

Results

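Mitochondria make only a few of their proteins themselves and import the rest from the cytosol. Proteins with a cleavable targeting signal pass the TOM pore of the outer membrane and then the TIM23 channel of the inner membrane. Most SLC25 carriers are inner membrane transporters without such a signal, though SLC25A3 has one and a few members sit in other membranes. The carriers are escorted by small TIM chaperones to the TIM22 insertion complex and, once inserted, exchange nucleotides, phosphate, amino acids, carboxylates and cofactors between cytosol and matrix. The translocases build the import route, and the carriers are among its most abundant clients.

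The genes described here are the protein-coding genes of the deposited table whose symbols begin with TIMM or TOMM, or read SLC25A followed by a number. The rule uses names and no measured value, and it was set with earlier results of these data known. There were 74 of 19932 protein-coding genes, 26 translocase genes and 48 carrier genes. TIMMDC1 carries the TIMM prefix but encodes an assembly factor of respiratory complex I. The carriers UCP1, UCP2, UCP3, MTCH1 and MTCH2 fall outside the naming rule and are given at the end with other import genes.

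RNA was sequenced from A2780 cells, an established human ovarian cancer line, with 1 library labelled shJAM3 and 1 labelled shControl. The shJAM3 library came from cells with stable knockdown of JAM3, which encodes a junctional adhesion molecule, and the shControl library from cells with empty vector, whose genotype label is wild type. The design text speaks of siRNA and the titles of sh constructs, and the sources used here do not state the number of clones or constructs. The libraries held 16455079 fragments assigned to genes in shJAM3 and 15570262 in shControl, of which the 74 genes took 0.555% in shJAM3 and 0.534% in shControl. JAM3 itself had 14 fragments in shJAM3 and 18 in shControl, a ratio of 0.716 (0.330 to 1.52), too few to check the label. Of 8 ovarian carcinoma markers KRT8, KRT18, KRT7 and MSLN were at 93.4 FPKM or more in each library, while WT1 was near 0 and EPCAM, PAX8 and MUC16 did not exceed 1.12 FPKM in either. MSLN (ratio 0.641), KRT7 (0.666) and PAX8 (0.471) were lower beyond counting error. MUC16 (2.25), KRT18 (1.14) and KRT8 (1.11) were higher beyond it, and EPCAM and WT1 had intervals that include 1. Centred on genes of like GC content, the log2 ratios of MSLN, KRT7 and PAX8 were -0.14, -0.20 and -0.31. Before centring they were -0.64, -0.58 and -0.47. Those of MUC16, KRT18 and KRT8 were 0.48, 0.27 and 0.30 after centring, in place of 0.49, 0.19 and 0.14. The 4 leukocyte markers summed to 0.595 FPKM in shJAM3 and 0.503 in shControl, and the 4 endothelial markers to 0.405 FPKM in shJAM3 and 0.482 in shControl, with PTPRC and KDR at 0. The 4 fibroblast markers summed to 14.3 FPKM in shJAM3 and 17.3 in shControl, with COL1A1 (0.843, 0.791 to 0.898) and PDGFRB (0.790, 0.684 to 0.912) lower beyond counting error and DCN and LUM near 0. Centred on genes of like GC content, the log2 ratio of COL1A1 was 0.07 in place of -0.23. That of PDGFRB was -0.05 in place of -0.26. The part of these markers in the results was not tested. With 1 library per group there is no replicate check, and no test of the conditions was possible. Values are FPKM, fragments scaled by gene length and library size, and ratios are shJAM3 over shControl. Bracketed ranges are exact 95% intervals for counting error between these libraries only.

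Both classes held genes on either side of a ratio of 1. In a bulk library, more RNA per cell and more cells with that RNA cannot be told apart. A mean of at least 1 FPKM, the limit for calling a gene measured, was reached by 59 of the 74 genes. Of the 23 measured translocases 13 were higher and 10 lower in shJAM3, with a median log2 ratio of 0.11 on the scale of FPKM + 1. Of the 36 measured carriers 18 were higher and 18 lower, with a median of -0.0040 and a mean of 0.03, which differ in sign. Among all 10499 measured protein-coding genes 49.4% were higher and the median was -0.01. The translocase median exceeded the carrier median by 0.11 log2 units, a description with no test, and after centring on genes of like GC content the difference was -0.029.

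Most members differed beyond counting error, as most genes did. The interval lay above 1 for 10 of 23 translocases and 15 of 36 carriers (43.5% and 41.7%), beside 34.5% of all measured protein-coding genes. It lay below 1 for 8 translocases and 11 carriers (34.8% and 30.6%), beside 36.8% of all measured protein-coding genes. At a log2 ratio of at least 1 in size, SLC25A13 was the only member higher, and no member was lower. Centred on GC content, SLC25A13 had a log2 ratio of 0.86, short of that limit. Over all measured protein-coding genes 0.391% were past that limit on the higher side and 1.41% on the lower side. The summed level of all translocases was 632 FPKM in shJAM3 and 599 in shControl, and that of all carriers 1315 FPKM in shJAM3 and 1283 in shControl.

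**Figure D1:**
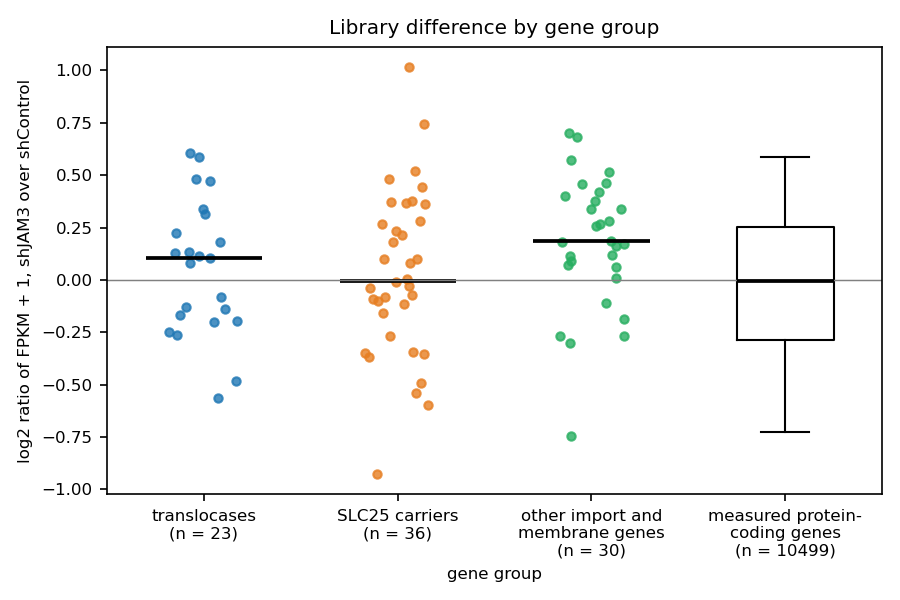
Log2 ratio of FPKM + 1, shJAM3 over shControl, for each measured gene (points) of 3 groups, with the group median as a black bar, and for all measured protein-coding genes as a box from the lower to the upper quartile with whiskers at percentiles 5 and 95. Translocases and carriers spread to both sides of 0, with medians of 0.11 and -0.0040, while 24 of 30 other import and membrane genes lie above 0.

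The receptors of the outer membrane differed from each other. TOMM20, the receptor that recognises cleavable presequences, was at 86.9 FPKM in shJAM3 and 57.6 in shControl, a ratio of 1.51 (1.44 to 1.58). It lies at chr1:235109336-235128936 on the minus strand of GRCh38, and it was counted from 5132 fragments in shJAM3 and 3132 in shControl. The processed pseudogene TOMM20P4 had 58 fragments in shJAM3 and 27 in shControl, and 3.71% of the 75-base stretches of the TOMM20 transcript also occur in other genes. TOMM70, the receptor for carriers and other proteins with internal signals, stood on the other side with 19.5 FPKM in shJAM3 and 22.1 in shControl, a ratio of 0.884 (0.828 to 0.945). TOMM34, a cytosolic co-chaperone that binds preproteins, was at 34.5 FPKM in shJAM3 and 27.1 in shControl, with a ratio of 1.27 (1.17 to 1.39). Thus the presequence receptor was higher and the carrier receptor slightly lower in the same library.

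The pore itself was mixed. TOMM40, the beta-barrel channel, had 54.6 FPKM in shJAM3 and 59.9 in shControl, a ratio of 0.912 (0.868 to 0.957). TOMM7, a small subunit that acts in pore assembly, had 39.4 FPKM in shJAM3 and 43.5 in shControl, also slightly lower. TOMM22, the central receptor and organiser of the complex, was higher, with 18.3 FPKM in shJAM3 and 12.9 in shControl and a ratio of 1.42 (1.25 to 1.60). TOMM40L, a paralog of the channel, was at 6.31 FPKM in shJAM3 and 5.26 in shControl, and 20.2% of its exon bases are shared with another annotated gene. After centring on genes of like GC content the log2 ratio of TOMM40 was 0.08 in place of -0.13, so channel and organiser stood on opposite sides only before that centring.

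The remaining outer membrane genes were under the 1 FPKM limit. TOMM6 was listed at 0 in both libraries, which with 3 fragments as the limit allows up to 0.282 FPKM in shJAM3 and 0.307 in shControl. All of its exon bases (100%) lie under other annotated genes, one of them AL365205.1 on the same strand, listed at 0.629 FPKM in shJAM3 and 0.421 in shControl. How the counting treated such shared fragments was not tested, so the value of TOMM6 is uncertain. TOMM5 had 23 fragments in shJAM3 and 7 in shControl, with 18.7% of its exon bases shared, and TOMM20L had 1 in shJAM3 and 0 in shControl.

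The small TIM chaperones, which ferry carriers across the intermembrane space, lay on both sides. TIMM8B was at 18.6 FPKM in shJAM3 and 13.1 in shControl, a ratio of 1.42 (1.21 to 1.69). Genes on the opposite strand cover 32.3% of its exon bases. TIMM10B, which tethers the chaperones to the insertion complex, had 12.6 FPKM in shJAM3 and 9.93 in shControl, and TIMM10, a subunit of the main chaperone hexamer, had 44.4 FPKM in shJAM3 and 39.0 in shControl. Those 3 exceeded counting error. The partner of TIMM10 in that hexamer, TIMM9, was at 10.8 FPKM in shJAM3 and 9.94 in shControl, and TIMM8A, the gene of deafness-dystonia syndrome, at 4.59 FPKM in shJAM3 and 4.20 in shControl, both with intervals that include 1. TIMM13, the partner of the TIMM8 proteins, was lower, with 32.7 FPKM in shJAM3, 39.5 in shControl and a ratio of 0.829 (0.762 to 0.901). Centred on GC content, the log2 ratio of TIMM13 was 0.12 in place of -0.26, while those of TIMM9 and TIMM8A were -0.07 and -0.03 in place of 0.11 and 0.11. Other genes cover 28.9% of the exon bases of TIMM13 and 30.5% of those of TIMM9. The median log2 ratio of the 6 genes was 0.15, with 5 on the higher side, beside 49.4% of all measured protein-coding genes. After GC centring 4 were on the higher side, beside 49.9%.

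Of the TIM22 complex, which inserts the carriers, neither TIMM22 nor TIMM29 was higher. TIMM10B, which tethers the chaperones to that complex, was higher, with a ratio of 1.27 (1.12 to 1.43). TIMM22, the channel of the complex, was at 14.0 FPKM in shJAM3 and 14.9 in shControl, a ratio of 0.943 (0.850 to 1.05). TIMM29, a subunit found in animals, was at 10.3 FPKM in shJAM3 and 14.9 in shControl, with a ratio of 0.696 (0.600 to 0.806). Its log2 ratio was -0.48, or -0.18 after GC centring.

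The TIM23 channel for presequence proteins held both the highest and the lowest ratio of the measured translocases. TIMM21, which links the TIM23 channel to TOM and to respiratory chain assembly, was at 4.70 FPKM in shJAM3 and 2.75 in shControl, a ratio of 1.71 (1.45 to 2.02). TIMM17A, a short-lived channel subunit (chr1:201955491-201970661, plus strand), was at 16.3 FPKM in shJAM3 and 24.5 in shControl, with a ratio of 0.663 (0.609 to 0.721). Its paralog TIMM17B was at 34.0 FPKM in shJAM3 and 39.2 in shControl, with a ratio of 0.867 (0.807 to 0.932). Centred on GC content, the log2 ratio of TIMM17B was -0.04 in place of -0.20. That of TIMM17A was -0.75 in place of -0.56. Within a library TIMM17A stood at 0.479 of the TIMM17B level in shJAM3 and at 0.627 in shControl. The change in that proportion was 0.764 (0.684 to 0.855), so the paralogs differed from each other beyond counting error.

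The other members of the channel were closer to 1. TIMM23, the core subunit, was the most abundant translocase with 99.0 FPKM in shJAM3 and 90.1 in shControl, a ratio of 1.10 (1.03 to 1.17). Its copy TIMM23B was at 4.08 FPKM in shJAM3 and 4.81 in shControl (0.848, 0.699 to 1.03), and 9.15% of the 75-base stretches of TIMM23 also occur there, so the split between them is uncertain. TIMM50, the presequence receptor of the channel, was at 18.1 FPKM in shJAM3 and 17.0 in shControl, with an interval that includes 1. TIMM44, which anchors the import motor, was at 13.5 FPKM in shJAM3 and 16.2 in shControl, with a ratio of 0.831 (0.765 to 0.902). Centred on GC content, the log2 ratio of TIMM44 was -0.04 in place of -0.25. Of the 7 members 3 were higher and 4 lower, beside 49.4% of all measured protein-coding genes higher. TIMMDC1, the complex I factor, was at 34.2 FPKM in shJAM3 and 31.2 in shControl (1.10, 1.02 to 1.18), with 29.2% of its exon bases shared and a GC-centred log2 ratio of -0.0037.

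**Figure D2:**
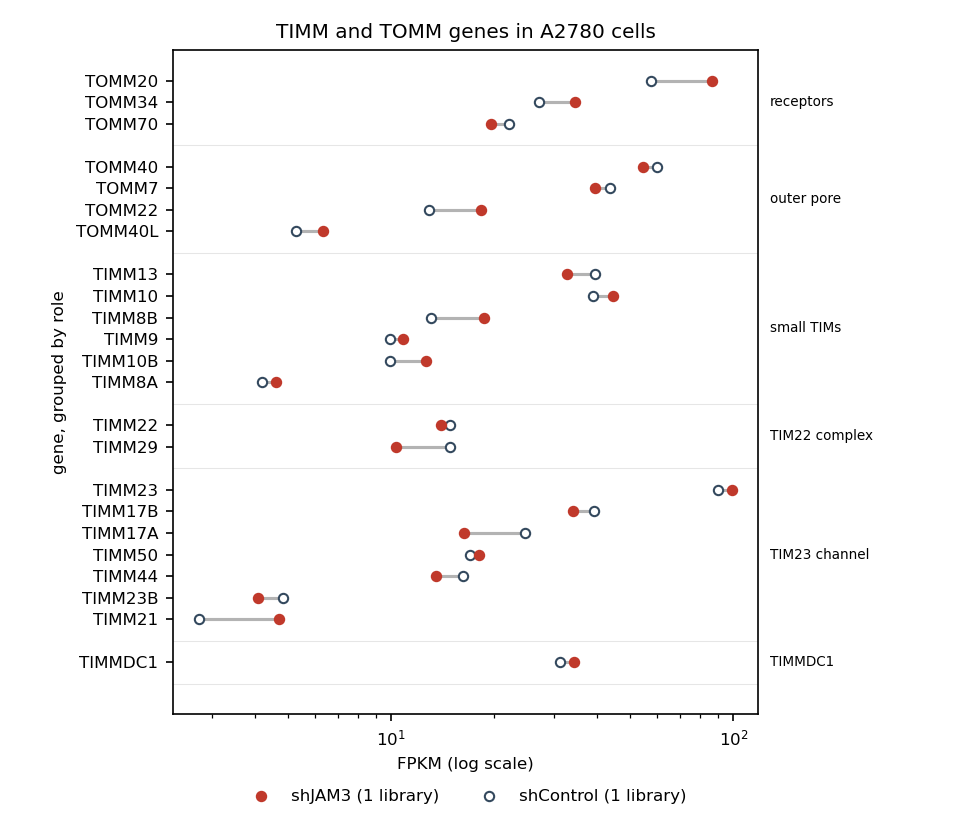
FPKM on a log scale of the 23 measured translocase genes in shJAM3 (filled) and shControl (open), 1 library each, grouped by role. TIMM21, TOMM20, TIMM8B and TOMM22 lie furthest to the right of their shControl value, and TIMM17A and TIMM29 furthest to the left, before any GC centring.

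Among carriers, the adenine nucleotide translocators were the most abundant. They exchange ADP for ATP across the inner membrane and are encoded by SLC25A4, SLC25A5, SLC25A6 and SLC25A31. SLC25A5 (ANT2), the form of dividing cells, was at 445 FPKM in shJAM3 and 346 in shControl, a ratio of 1.29 (1.25 to 1.32). SLC25A6 (ANT3) was at 265 FPKM in shJAM3 and 286 in shControl, with a ratio of 0.924 (0.898 to 0.951). The muscle and heart form SLC25A4 (ANT1) was low, at 4.32 FPKM in shJAM3 and 2.81 in shControl (1.54, 1.29 to 1.83), and the germline form SLC25A31 had no fragment, which allows up to 0.0977 FPKM in shJAM3 and 0.106 in shControl.

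The isoform proportion therefore differed. SLC25A5 made up 62.3% of the summed translocator FPKM in shJAM3 and 54.5% in shControl, and SLC25A6 37.1% in shJAM3 and 45.1% in shControl. The SLC25A5 to SLC25A6 proportion was 1.68 in shJAM3 and 1.21 in shControl, a change of 1.39 (1.33 to 1.45). Their transcripts differ in GC content, 49.5% for SLC25A5 and 64.9% for SLC25A6. After each gene was centred on genes of like GC content, the log2 ratios were 0.35 and 0.38, and the difference between the isoforms was -0.03. An antisense gene shares 15.1% of the SLC25A5 exon bases.

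The phosphate carrier SLC25A3, which supplies ATP synthase, did not differ beyond counting error, with 63.4 FPKM in shJAM3 and 63.8 in shControl (0.993, 0.964 to 1.02). The calcium-regulated ATP-Mg/phosphate carriers split. SLC25A24 was at 12.4 FPKM in shJAM3 and 9.30 in shControl (1.33, 1.22 to 1.45), SLC25A25 at 9.69 FPKM in shJAM3 and 12.6 in shControl (0.767, 0.698 to 0.844), and SLC25A23 at 35.6 FPKM in shJAM3 and 33.1 in shControl (1.07, 1.02 to 1.13). SLC25A24 stood at 1.28 times the level of SLC25A25 in shJAM3 and at 0.736 times in shControl, so their order was opposite in the libraries. Opposite-strand genes cover 13.7% and 16.2% of their exon bases. Centred on GC content, the log2 ratios of SLC25A24, SLC25A25 and SLC25A23 were 0.15, -0.26 and 0.31, in place of 0.38, -0.35 and 0.10. The pyrimidine nucleotide carriers SLC25A36 (11.0 FPKM in shJAM3 and 8.94 in shControl) and SLC25A33 (7.39 FPKM in shJAM3 and 6.23 in shControl) were both higher beyond counting error. Centred on GC content, their log2 ratios were 0.04 and 0.09, in place of 0.27 and 0.21.

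The aspartate/glutamate carriers of the malate-aspartate shuttle were both higher in shJAM3. SLC25A13 (citrin), at chr7:96120220-96322147 on the minus strand, was at 26.4 FPKM in shJAM3 (1636 fragments) and 12.6 in shControl (717 fragments), a ratio of 2.10 (1.92 to 2.30). This was the highest ratio of any measured member, and no other annotated gene shares its exon bases. SLC25A12 (aralar) was at 4.35 FPKM in shJAM3 and 2.73 in shControl, with a ratio of 1.59 (1.34 to 1.89). The oxoglutarate/malate carrier SLC25A11, the other transporter of that shuttle, was at 23.2 FPKM in shJAM3 and 24.9 in shControl, with an interval that includes 1 (0.853 to 1.02).

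Other amino acid carriers were level or lower. SLC25A29, a carrier of basic amino acids (chr14:100291111-100306547, minus strand), was at 11.1 FPKM in shJAM3 and 22.0 in shControl, a ratio of 0.505 (0.472 to 0.539). It was the lowest of all measured members, just short of the 2-fold limit with a log2 ratio of -0.93. The glutamate carrier SLC25A22 was at 15.3 FPKM in shJAM3 and 23.7 in shControl, with a ratio of 0.647 (0.600 to 0.697), and SLC25A38, a glycine carrier needed for haem synthesis, at 17.7 FPKM in shJAM3 and 23.1 in shControl (0.764, 0.695 to 0.840). Centred on GC content, the log2 ratio of SLC25A22 was -0.21 in place of -0.60. That of SLC25A38 was -0.32 in place of -0.37. The ornithine carrier SLC25A15 was at 9.33 FPKM in shJAM3 and 9.32 in shControl, and SLC25A44, a carrier of branched-chain amino acids, at 8.23 FPKM in shJAM3 and 7.61 in shControl, both with intervals that include 1.

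All 3 measured carboxylate carriers had ratios below 1, beside 49.4% of all measured protein-coding genes above 1. The transcripts of these carriers are GC-rich, with a median of 65.4%. SLC25A1, which exports citrate for lipid synthesis, was at 156 FPKM in shJAM3 and 198 in shControl, a ratio of 0.787 (0.759 to 0.817). The dicarboxylate carrier SLC25A10 was at 7.43 FPKM in shJAM3 and 10.9 in shControl, with a ratio of 0.683 (0.590 to 0.791). A same-strand gene, AC139530.2, covers 46.6% of its exon bases. Centred on genes of like GC content, the log2 ratios were 0.15 for SLC25A1, 0.11 for SLC25A11 and 0.0033 for SLC25A10. All 3 thus lay above 0 after centring, beside 49.9% of all measured protein-coding genes.

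Cofactor and iron carriers went both ways. SLC25A17, the peroxisomal carrier of coenzyme A and other nucleotide cofactors, was at 6.63 FPKM in shJAM3 and 3.56 in shControl, a ratio of 1.86 (1.58 to 2.20). SLC25A26, which imports S-adenosylmethionine, was at 3.36 FPKM in shJAM3 and 2.20 in shControl (1.53, 1.28 to 1.83), with 15.5% of its exon bases shared. SLC25A42, a mitochondrial coenzyme A carrier, was at 4.71 FPKM in shJAM3 and 7.30 in shControl (0.645, 0.562 to 0.740). The peroxisomal and the mitochondrial coenzyme A carriers thus stood on opposite sides.

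Of the iron importers, SLC25A28 (mitoferrin-2) was at 15.1 FPKM in shJAM3 and 12.2 in shControl, higher beyond counting error, and SLC25A37 (mitoferrin-1) at 17.6 FPKM in shJAM3 and 16.6 in shControl, with an interval of 0.998 to 1.12. The glutathione carrier SLC25A39 was at 81.5 FPKM in shJAM3 and 83.2 in shControl and its paralog SLC25A40 at 4.54 FPKM in shJAM3 and 4.69 in shControl, neither beyond counting error. SLC25A16 was at 2.29 FPKM in shJAM3 and 1.79 in shControl, higher beyond counting error, with a log2 ratio of 0.24, or 0.05 after GC centring. SLC25A51, the NAD carrier, was at 1.99 FPKM in shJAM3 and 2.61 in shControl, with a ratio of 0.765 (0.591 to 0.989).

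The last groups were small. SLC25A20, which imports acylcarnitines for fatty acid oxidation, was at 8.23 FPKM in shJAM3 and 8.77 in shControl, within counting error. Of the carriers related to uncoupling proteins, SLC25A14 was at 3.01 FPKM in shJAM3 and 2.10 in shControl and SLC25A30 at 2.38 FPKM in shJAM3 and 1.62 in shControl, both higher beyond counting error. SLC25A46, an outer membrane protein that acts in mitochondrial fission, was at 3.05 FPKM in shJAM3 and 3.52 in shControl, and SLC25A45 at 2.19 FPKM in shJAM3 and 3.07 in shControl (0.713, 0.609 to 0.833). SLC25A43, at 8.66 FPKM in shJAM3 and 9.30 in shControl, and SLC25A35, at 4.03 FPKM in shJAM3 and 4.29 in shControl, had intervals that include 1.

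The 12 carriers under the 1 FPKM limit were SLC25A2, SLC25A18, SLC25A21, SLC25A27, SLC25A31, SLC25A32, SLC25A34, SLC25A41, SLC25A47, SLC25A48, SLC25A52 and SLC25A53. Their intervals all included 1 where any fragment was counted, and SLC25A31, SLC25A48 and SLC25A52 had none in either library. SLC25A32, the folate and FAD carrier, had 11 fragments in shJAM3 and 4 in shControl, and 80.8% of its exon bases lie under other annotated genes, so its low level is uncertain. Among the low genes TOMM5 alone had an interval above 1 (1.26 to 8.35).

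**Figure D3:**
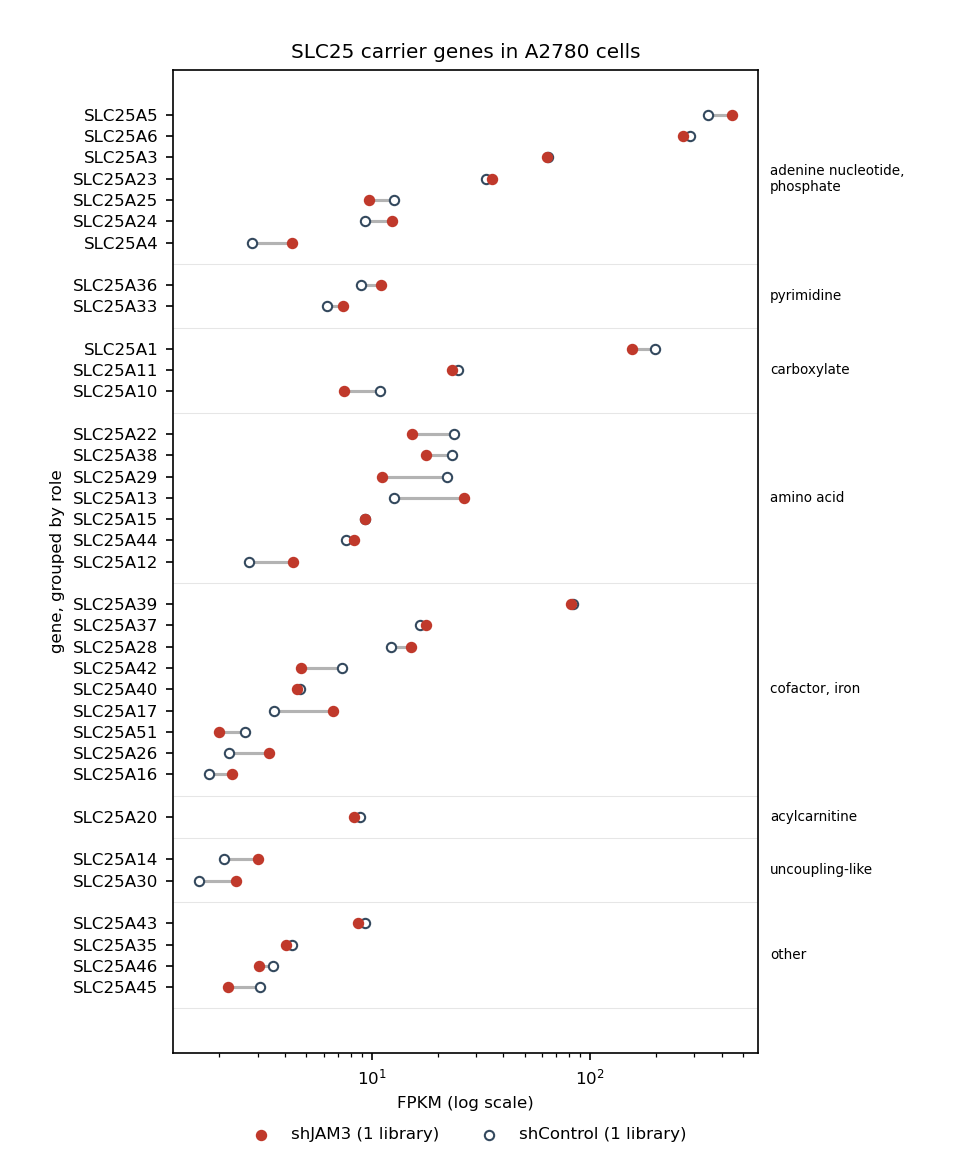
FPKM on a log scale of the measured SLC25 genes described here in shJAM3 (filled) and shControl (open), 1 library each, grouped by substrate. SLC25A13 and SLC25A17 lie furthest to the right of their shControl value and SLC25A29 furthest to the left, while SLC25A3, SLC25A15 and SLC25A39 nearly coincide.

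GC-rich members had lower ratios, as did GC-rich genes in general. Across the 59 measured members Pearson's r between GC content and log2 ratio was -0.51 (Spearman's rho -0.52), and across 10496 protein-coding genes it was -0.50. These are descriptions over genes of the same 2 libraries, which are not independent. Above the median GC content of 49.1%, 4 of 10 translocases and 8 of 23 carriers were higher, beside 1562 of 5248 protein-coding genes. At or below it, 9 of 13 translocases and 10 of 13 carriers were higher, beside 3619 of 5248 protein-coding genes. The classes differed in composition, with a median GC content of 46.9% for measured translocases and 50.0% for carriers.

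Centring each gene on genes of like GC content changed the split of carriers to 23 higher and 13 lower, and that of translocases to 12 and 11. After the same centring 49.9% of all measured protein-coding genes were higher. The medians became 0.06 for translocases and 0.09 for carriers, so their order was opposite to that before centring. The highest centred log2 ratios were those of SLC25A13 at 0.86, SLC25A17 at 0.61, SLC25A28 at 0.49, SLC25A26 at 0.44, TIMM21 at 0.42, TOMM20 at 0.40 and SLC25A4 at 0.40. The lowest were those of TIMM17A at -0.75 and SLC25A29 at -0.72. TIMM17A has a GC content of 40.9%, where the median gene was higher in shJAM3, and centring moved it further from 0. The part of GC content in any of these ratios was not tested.

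**Figure D4:**
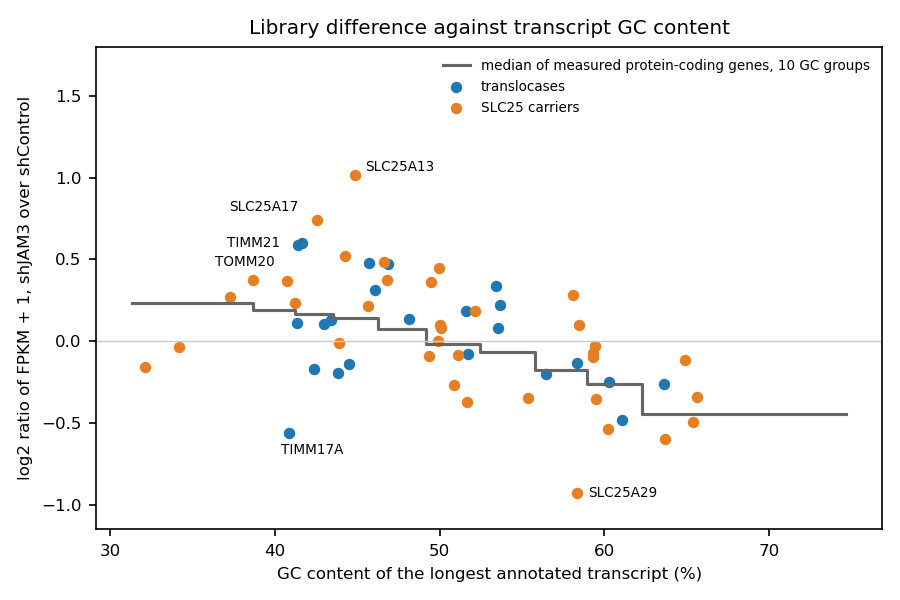
Log2 ratio of FPKM + 1, shJAM3 over shControl, against the GC content of the longest annotated transcript, for measured translocases and carriers, with the median of all measured protein-coding genes in 10 GC groups as a grey step line. The line falls from 0.23 in the lowest GC group to -0.44 in the highest, with members on both sides of it, SLC25A13 far above it and TIMM17A and SLC25A29 far below it.

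Genes of mitochondrial biogenesis are known targets of NRF1 and of the ETS factor GABP, also called NRF-2. RefSeq windows (GRCh38.p14, 250 bases before to 50 after the gene start) were found for 24 translocases and 40 carriers. The ETS letters CCGGAAG, read on both strands, occurred in 12 translocase windows (50.0%), in 8 carrier windows (20.0%) and in 20.7% of 8383 windows of measured protein-coding genes. The NRF1 letters GCGCANGCG occurred in 7 translocase windows (29.2%), 5 carrier windows (12.5%) and 15.9% of the windows of measured genes. Either motif occurred in 15 translocase and 13 carrier windows, and both in 4 translocase windows and 0 carrier windows, with no overlap between the sites. Among the 8383 windows of measured genes 2753 held either motif and 313 both. The E-box CACGTG occurred in 3 translocase and 7 carrier windows (12.5% and 17.5%, beside 10.4% of the windows of measured genes). The cyclic AMP element TGACGTCA occurred in 0 and 3 windows (0% and 7.50%, beside 3.60%). Over all 15843 protein-coding windows the shares were 14.2% for ETS, 11.0% for NRF1, 8.88% for the E-box and 2.59% for the cyclic AMP element.

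Members with a motif were found on both sides. Of 11 measured translocases with the ETS letters 7 were higher (median log2 ratio 0.13), and of 11 without them 5 were higher (-0.08). Of 7 measured carriers with these letters 4 were higher (median 0.37), and of 24 without them 10 were higher (-0.03). Over all measured genes 1010 of 1732 with these letters were higher (median 0.08), and 3194 of 6651 without them (-0.02). For the NRF1 letters, 3 of 7 translocases with them were higher and 9 of 15 without them. The same counts were 0 of 3 and 14 of 28 for carriers, and 704 of 1334 and 3500 of 7049 for all measured genes. A match is a run of letters, and binding was not measured. The sequences below show sites of a higher and a lower translocase that each hold both motifs, of the TIMM23 copies, and of 3 carriers. Each line has 1 site in capitals, the last before the RefSeq gene start, with the gene's strand read 5′ to 3′. TIMM23 and TIMM23B hold 2 ETS sites each in the window, and TIMM29 holds 2 NRF1 sites. In TIMM23B the second ETS site is in the lowercase bases just before the capitals. In TIMM23 the bases at that place do not match.

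TOMM20, ETS, chr1:235128838-235128879, minus strand: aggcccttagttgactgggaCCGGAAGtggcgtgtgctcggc
TOMM20, NRF1, chr1:235128910-235128958, minus strand: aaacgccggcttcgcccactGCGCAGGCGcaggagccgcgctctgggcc
TIMM29, ETS, chr19:10928702-10928748, plus strand: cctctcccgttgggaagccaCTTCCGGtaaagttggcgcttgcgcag
TIMM29, NRF1, chr19:10928718-10928766, plus strand: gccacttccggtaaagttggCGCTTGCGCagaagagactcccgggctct
TIMM23, ETS, chr10:45972421-45972467, plus strand: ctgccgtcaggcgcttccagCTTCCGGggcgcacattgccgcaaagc
TIMM23B, ETS, chr10:49941991-49942037, plus strand: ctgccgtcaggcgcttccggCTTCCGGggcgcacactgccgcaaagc
SLC25A17, ETS, chr22:40819368-40819414, minus strand: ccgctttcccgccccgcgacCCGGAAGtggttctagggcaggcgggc
SLC25A38, ETS, chr3:39383325-39383369, plus strand: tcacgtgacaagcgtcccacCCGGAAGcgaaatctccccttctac
SLC25A3, NRF1, chr12:98593453-98593501, plus strand: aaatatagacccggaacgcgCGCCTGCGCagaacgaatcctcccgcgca

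TOMM20, with a log2 ratio of 0.59, and TIMM29, with -0.48 (0.40 and -0.18 after GC centring), hold the same pair of motifs. The ETS site of TOMM20 begins 22 bases before its RefSeq gene start, and that of TIMM29 begins 89 bases before its own. The GENCODE starts differ from these. The printed ETS stretch of TOMM20 lies inside the GENCODE gene, and that of TIMM29 spans the GENCODE start at 10928733. SLC25A17 (0.74) and SLC25A38 (-0.37) likewise share the ETS letters and differ in direction.

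Other import, processing and membrane transport genes, 30 measured of 33, were listed to show the setting of the members. Of the 30, 24 had ratios above 1 and 6 below, beside 49.4% of all measured protein-coding genes above 1. The interval excluded 1 on the higher side for 16 (53.3%, beside 34.5% of all measured protein-coding genes) and on the lower side for 5 (16.7%, beside 36.8%). After GC centring 21 of the 30 were above 0, beside 49.9% of all measured protein-coding genes. The median log2 ratio of the 30 was 0.19, or 0.13 after that centring. Most of the 30 are GC-poor, with a median of 44.9%.

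The processing and folding genes had a median log2 ratio of 0.26, with 7 of 8 higher, beside 49.4% of all measured protein-coding genes. After GC centring the median was 0.13 with 5 of 8 higher, beside 49.9%. HSPE1, the co-chaperonin of the matrix, was at 13.2 FPKM in shJAM3 and 7.87 in shControl (1.68, 1.43 to 1.98), and its chaperonin HSPD1 at 143 FPKM in shJAM3 and 95.9 in shControl (1.49, 1.45 to 1.54). For HSPE1 23.9% of the exon bases are shared with other genes. PMPCB, the catalytic subunit of the presequence peptidase, was at 16.7 FPKM in shJAM3 and 12.4 in shControl (1.34, 1.23 to 1.46), while its partner PMPCA was at 26.2 FPKM in shJAM3 and 26.1 in shControl. The peptidase genes XPNPEP3, with a ratio of 0.863 (0.694 to 1.07), and IMMP2L, with a ratio of 1.05 (0.907 to 1.22), had intervals that include 1.

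In the import motor DNAJC19, a J-domain protein, was at 5.75 FPKM in shJAM3 and 3.92 in shControl (1.47, 1.23 to 1.75). The motor Hsp70 HSPA9 was at 87.6 FPKM in shJAM3 and 76.8 in shControl (1.14, 1.11 to 1.17), and PAM16 at 2.09 FPKM in shJAM3 and 1.72 in shControl, within counting error. GRPEL2, at 11.7 FPKM in shJAM3 and 14.3 in shControl (0.819, 0.746 to 0.898), and ROMO1, at 92.2 FPKM in shJAM3 and 111 in shControl (0.830, 0.764 to 0.902), were lower, and GRPEL1, the main nucleotide exchange factor, was at 14.6 FPKM in shJAM3 and 13.4 in shControl, within counting error. GC centring turned the log2 ratio of ROMO1 to 0.04, in place of -0.27, and brought that of HSPA9 to 0.03, in place of 0.19.

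In the membranes the outer membrane channel VDAC1 was at 149 FPKM in shJAM3 and 91.3 in shControl, a ratio of 1.64 (1.58 to 1.70), and the insertase MTCH2 at 57.7 FPKM in shJAM3 and 40.1 in shControl (1.44, 1.36 to 1.53). MTX3, a metaxin of the outer membrane, was at 5.72 FPKM in shJAM3 and 4.03 in shControl (1.42, 1.27 to 1.60). GFER, the sulfhydryl oxidase of the intermembrane space relay, had the lowest ratio of these lists, with 17.0 FPKM in shJAM3 and 29.1 in shControl (0.582, 0.531 to 0.638) and 25.9% of its exon bases under an opposite-strand gene. Its partner CHCHD4 was at 15.6 FPKM in shJAM3 and 13.8 in shControl, within counting error. MTCH1, the paralog of MTCH2, was lower, at 139 FPKM in shJAM3 and 172 in shControl (0.810, 0.785 to 0.836). MTX1 was at 10.4 FPKM in shJAM3 and 12.0 in shControl (0.869, 0.774 to 0.976). For MTX1 21.9% of the exon bases are shared and 20.8% of the 75-base stretches are found in other genes. Centred on GC content, the log2 ratios of GFER, MTCH1 and MTX1 were -0.44, -0.09 and -0.10, in place of -0.75, -0.30 and -0.19. Those of VDAC1, MTCH2 and MTX3 were 0.62, 0.38 and 0.18, in place of 0.70, 0.51 and 0.42. The pyruvate carrier subunits MPC1 (8.96 FPKM in shJAM3 and 6.23 in shControl) and MPC2 (13.9 FPKM in shJAM3 and 10.5 in shControl) and the uncoupling protein UCP2 (42.2 FPKM in shJAM3 and 39.5 in shControl) were all higher beyond counting error, UCP3 was under the 1 FPKM limit, and UCP1 had no fragment.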

How the data were processed

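Poly(A)-selected RNA was sequenced from 2 libraries, 1 labelled shJAM3 and 1 labelled shControl. The authors deposited FPKM values per gene. The submitters' processing notes list HISAT2 2.0.5 and featureCounts 1.5.0-p3 among other tools without saying what each did, and the labels describe no step that marks the strand. All 58735 gene identifiers, coordinates, symbols and lengths equalled GENCODE release 29 (GRCh38), so coordinates are in that build.

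Multiplying FPKM by gene length gave integers after division by the smallest increment of each library, for 100% of values above 0 (tolerance 0.001). These are the fragment numbers. The library sizes implied by FPKM were 1.01 and 0.987 times the fragment totals in shJAM3 and shControl. Where several rows carried 1 symbol, the row with the highest mean was used (1566 left out). Log2 ratios used FPKM + 1, and a gene counted as measured if its mean reached 1 FPKM. The size rule was a log2 ratio of at least 1. Intervals are exact conditional binomial (scipy 1.17.1). PCR copies make them too narrow, and they and the limits for genes with no fragment leave out the spread between cultures. GC content came from each gene's longest GENCODE transcript, with 20 bins for centring. The interval and size rule were run on simulated counts with counting error only and with planted changes larger than the size rule. Such counts meet what the interval assumes, so the run checks the calculation and not the spread between cultures.

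The members and lists were chosen with earlier results of these data known. Every measured member but 1, which is not reported here, is named with its values, with intervals for the 5 highest and 5 lowest ratios of each class, for adenine nucleotide and phosphate carriers and for some others. Up to 3 members at each end of the other lists are named, with some of their partners added. The 4 promoter motifs, the paralog pairs and the sequences printed were chosen after values were seen. The alternatives were another pseudocount, 2 scalings, 2 filters, centring on GC or length, and leaving out members with shared exons or copies.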

Additional observations from a re-analysis of the deposited data

How the results depend on the processing

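With 1 library per group no replicate could be left out. No paired analysis was possible because each group holds 1 library. The carrier median of -0.0040 changed sign under 6 alternatives, to 0.033 by fragment totals, 0.0014 when centred on the median gene, 0.013 with no filter on low values, 0.090 with GC centring, 0.0021 with length centring and 0.078 without members that share exon bases or copies. GC centring also turned the difference between the classes to -0.029 and left 0 carriers past the 2-fold limit. Translocases lower beyond counting error became 5 of 23, in place of 8. Among members beyond counting error it turned the sign of SLC25A6 (0.38), SLC25A1 (0.15), TOMM40 (0.079), TIMM13 (0.12), SLC25A10 (0.0033) and TIMMDC1 (-0.0037), and among those within counting error that of SLC25A39 (0.18), SLC25A11 (0.11), SLC25A35 (0.14), TIMM9 (-0.07), TIMM8A (-0.03) and SLC25A15 (-0.0070). Apart from the first 6, 20 members, SLC25A39 and SLC25A11 among them, moved by more than the half-width of their own interval, and 33 did not. At a mean of at least 5 FPKM fewer carriers remained, and 9 of 25 were higher beyond counting error, in place of 15 of 36. The shares beyond counting error over all measured protein-coding genes given above hold for the main settings only. Without members sharing exon bases or copies, fewer genes remained, with 8 translocases higher and 4 lower (6 and 4 beyond counting error) and 11 carriers higher and 8 lower (8 and 5 beyond counting error). A pseudocount of 0.1 FPKM changed no direction or call among these results. Depth limits the 15 genes under 1 FPKM.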
